A study of Mus musculus with 6 samples.

Results

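The genes described here are Il6 and Il10, which encode the secreted cytokines interleukin-6 and interleukin-10, and Il6ra, Il10ra and Il10rb, which encode chains of their receptors. They were chosen by name, as the rows whose platform gene symbol is 1 of these 5, which gave 10 of 16281 features and 5 of 10088 genes tested. Il6 had 1 feature, Il6ra had 3, and the other 3 genes had 2 each. No value of these features was an exact 0, so all were used.

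RNA came from RAW 264.7 cells, a transformed mouse macrophage line and not primary cells (the labels also write RAW 264.4). Treated cells had spent 8 h in culture with 100 ng/ml of lipopolysaccharide (LPS) and 100 pM of LPS-binding protein, and untreated cells 8 h without either. LPS, from the outer membrane of Gram-negative bacteria, is sensed by Toll-like receptor 4, and LPS-binding protein carries it to the cell surface. Treated and untreated RNA shared each of 6 two-colour arrays, in 3 numbered sets of 2 arrays. One array of a set carried the treated RNA in Cy5 and is called a Cy5 array here, and the other carried it in Cy3 and is called a Cy3 array. Nothing in the labels ties the sets to separate cultures, so the p-values cover only set-to-set spread, which could be technical.

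Interleukin-6 binds its receptor chain IL-6R (Il6ra), and this pair recruits gp130, the signalling chain encoded by Il6st, which other cytokines of the family share. Interleukin-10 binds IL-10R1 (Il10ra), and this complex recruits IL-10R2 (Il10rb), a chain that also serves the receptors of interleukin-22 and interferon lambda. Both complexes signal through Janus kinases to the transcription factor STAT3. In macrophages interleukin-6 is known as a product of the inflammatory response and interleukin-10 as a restraint on it.

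The Il6 promoter is a textbook target of the factors that LPS activates, so the sequence before its start is shown. RefSeq promoter windows matched 2 of the 5 genes, Il6 and Il6ra, and both are given. Il10, Il10ra and Il10rb had no window, so the pair was set by what was available. The 250 bases before the annotated start are given 5′ to 3′ on the gene's strand (GRCm38.p6), for Il6 chr5:30012864-30013113 on the plus strand and for Il6ra chr3:89913197-89913446 on the minus strand. Capitals mark matches to any of the motifs searched on both strands.
Il6: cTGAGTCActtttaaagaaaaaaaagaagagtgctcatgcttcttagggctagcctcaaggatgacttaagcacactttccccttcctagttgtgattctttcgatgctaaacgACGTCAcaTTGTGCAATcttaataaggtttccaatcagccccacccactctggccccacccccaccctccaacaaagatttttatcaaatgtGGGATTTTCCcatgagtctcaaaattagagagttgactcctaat
Il6ra: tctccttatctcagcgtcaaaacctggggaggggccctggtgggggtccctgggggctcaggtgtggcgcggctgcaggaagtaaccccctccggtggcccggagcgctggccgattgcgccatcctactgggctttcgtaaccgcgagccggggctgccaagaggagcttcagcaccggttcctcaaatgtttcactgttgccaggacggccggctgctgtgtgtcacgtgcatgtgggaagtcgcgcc
The search covered the kB consensus bound by NF-kappaB, TGANTCA (AP-1), TGACGT (the core of the cyclic AMP response element), TTNNGCAAT (C/EBP), TTCNNNGAA (STAT) and TATAAA (the TATA box). The Il6 window held a kB match from base -44 to -35, a C/EBP match from -128 to -120, a TGACGT match on the opposite strand from -136 to -131 and an AP-1 match from -249 to -243, counted back from the start. No 2 of these matches overlapped, and neither TTCNNNGAA nor TATAAA was found. The Il6ra window held none of the 6. Among 32851 windows of the same length, 3.9% held a kB match, 1.93% a TTNNGCAAT match, 6.47% a TGACGT match, 6.75% a TGANTCA match, 7.02% a TTCNNNGAA match and 12.4% a TATAAA match. A match describes the letters in these windows and is not a measured binding site. Any part of these motifs in the ratios of either gene was not tested.

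The question was how treatment for 8 h shifted the RNA of these ligands and receptors. Both cytokine genes and 1 of the 3 receptor genes rose. Il6 rose 9.56-fold, Il10 rose 3.24-fold and Il10ra rose 1.59-fold, while Il6ra and Il10rb had ratios of 0.896 and 0.909 that did not pass the test. Of all 10088 genes tested, 34.2% passed at an adjusted p under 0.05, 17.3% as higher and 16.8% as lower in treated cells, so that a call alone is frequent in these data. Without set 3, 2009 genes passed instead of 3449. Every sign rests on reading the ratio as Cy5 over Cy3, because the labels name Cy3 control and Cy5 test, and rises and falls would change places under the opposite reading. Across the arrays as deposited, those of opposite dye orientation correlated with r of -0.768 to -0.404 over features. A ratio of total RNA cannot tell more cells from more RNA per cell, and it gives no level, so the abundance of a ligand cannot be set against that of its receptor.

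**Figure D1:**
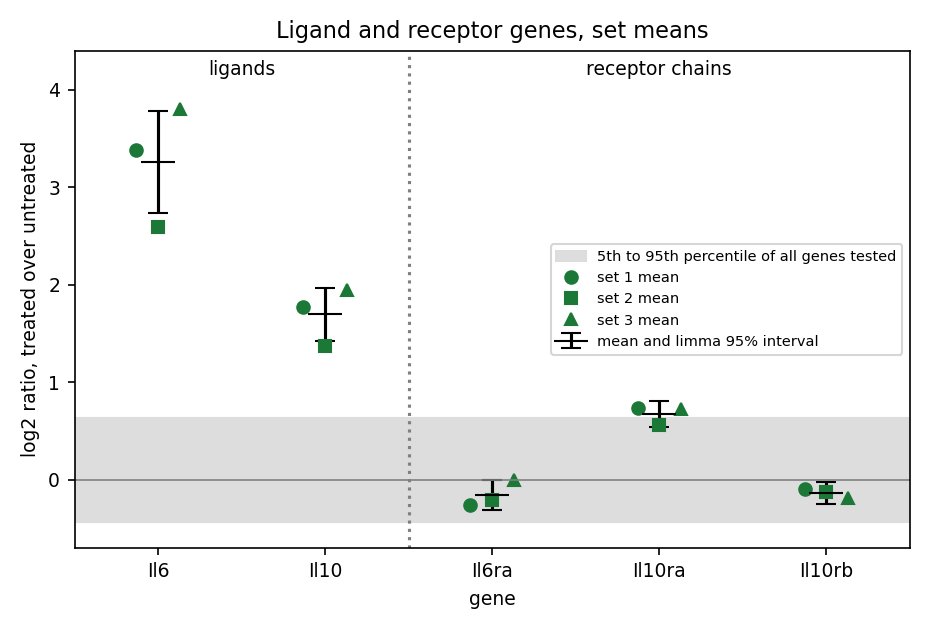
Log2 ratio of treated over untreated RNA (vertical axis) for the ligand genes Il6 and Il10 and the receptor genes Il6ra, Il10ra and Il10rb. Symbols are the 3 set means, bars the mean with limma's 95% interval, and the grey band runs from the 5th to the 95th percentile of all genes tested (-0.43 to 0.63). All set means of Il6 and Il10 lie above the band, those of Il10ra around its upper edge, and those of Il6ra and Il10rb inside it.

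Il6 was represented by a single feature, so no second probe bears on its ratio. On the Cy5 arrays its log2 ratio was 3.58 in set 1, 2.89 in set 2 and 4.02 in set 3. On the Cy3 arrays it was 3.18, 2.29 and 3.59 in the same sets. Every array thus had a log2 ratio above 2, set 3 was highest and set 2 lowest in both orientations, and the ranges of the orientations overlapped. The mean was 3.26 ± 0.62 (SD, n = 3 sets; adjusted p = 0.000161), with a 95% interval of 6.64-fold to 13.8-fold (limma, not adjusted for the number of genes, as for all intervals here). Limma pools each gene's variance with that of all genes, which made this interval narrower than the set spread of Il6 alone would. On the log2 scale it ran from 2.73 to 3.78, and the means of sets 2 and 3 (2.59 and 3.80) lay outside it. Il6 ranked 40th from the top among 10088 genes, and between 21 and 74 of 9217 on single arrays.

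Il10 was read by a pair of features that both cite the same transcript accession. Feature 3225 had log2 ratios of 1.88, 1.23 and 1.85 in sets 1 to 3 on the Cy5 arrays, and of 1.5, 1.28 and 2.03 on the Cy3 arrays. Feature 4474 had 1.81, 1.23 and 1.85 on the Cy5 arrays, and 1.89, 1.74 and 2.06 on the Cy3 arrays. All values of both features were above 1, and set 2 was the lowest in each feature and orientation. The gene mean was 1.70 ± 0.30 (SD, n = 3 sets; adjusted p = 0.00015), with a 95% interval of 2.69-fold to 3.9-fold, and it ranked 135th of 10088. The mean of feature 3225 stood 0.14 ± 0.11 below that of feature 4474, a small gap beside the rise itself. Each feature passed in the test over 14343 features (adjusted p = 0.000227 and 5.47e-05), where 32.7% of features did, 17.1% of them as higher.

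Set 2 gave the smallest rise of both cytokine genes, at 2.59 for Il6 and 1.37 for Il10. Sets 1 and 3 gave 3.38 and 3.80 for Il6, and 1.77 and 1.95 for Il10. The same order, set 3 over set 1 over set 2, appeared in both genes. Set 2 was not lower across strongly raised genes as a whole. Among 282 genes that passed with a mean log2 ratio above 1, the median was 1.63 in set 1, 1.62 in set 2 and 1.63 in set 3, and set 2 was the lowest of the 3 in 86 of them. Other genes had their lowest set mean in set 2 too, such as Gbp8 (3.33, 2.22 and 3.64 in sets 1 to 3), Bcl3 (1.85, 1.46 and 1.82) and Stfa3 (1.92, 1.55 and 1.93), which were picked out below for their likeness to Il6 or Il10.

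Il10ra, the chain that binds interleukin-10 itself, was the receptor gene that rose. Its log2 ratio was 0.75, 0.66 and 0.79 in sets 1 to 3 on the Cy5 arrays, and 0.71, 0.46 and 0.67 on the Cy3 arrays. All 6 arrays were above 0, as were those of 17.8% of 9217 genes with 6 values. The mean was 0.67 ± 0.10 (SD, n = 3 sets; adjusted p = 0.000363), with a 95% interval of 1.45-fold to 1.75-fold, and it ranked 464th of 10088. This interval includes a change of 1.5-fold, and tested against that size Il10ra did not pass (adjusted p = 1).

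The features of Il10ra differed in the size of their rise, and across the 6 arrays they moved in opposite ways (Pearson's r = -0.877). Feature 5951 had log2 ratios of 0.96, 0.93 and 0.58 on the Cy5 arrays, and of 1.08, 1.10 and 1.25 on the Cy3 arrays, a mean of 0.98 ± 0.06 (adjusted p = 4.68e-05). Feature 11274 had 0.55, 0.38 and 1.01 on the Cy5 arrays, and 0.34, -0.19 and 0.08 on the Cy3 arrays, a mean of 0.36 ± 0.24 (adjusted p = 0.0267). The second feature thus averaged 0.65 on the Cy5 arrays and 0.08 on the Cy3 arrays, where it ran from -0.19 to 0.34. The first was lower on the Cy5 arrays. Feature 5951 exceeded feature 11274 by 0.57, 0.92 and 0.37 in the 3 sets, or 0.62 ± 0.28. Both feature means lay outside the gene's 95% interval, which ran from 0.54 to 0.81 on the log2 scale. The SD and interval of the gene thus do not cover the disagreement of its features. Tested against 1.5-fold, feature 5951 passed (adjusted p = 0.00365) and feature 11274 did not. The call of feature 11274 was lost without set 1 (adjusted p = 0.0943), without set 3 (adjusted p = 0.115) and on the Cy3 arrays alone (adjusted p = 0.682).

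**Figure D2:**
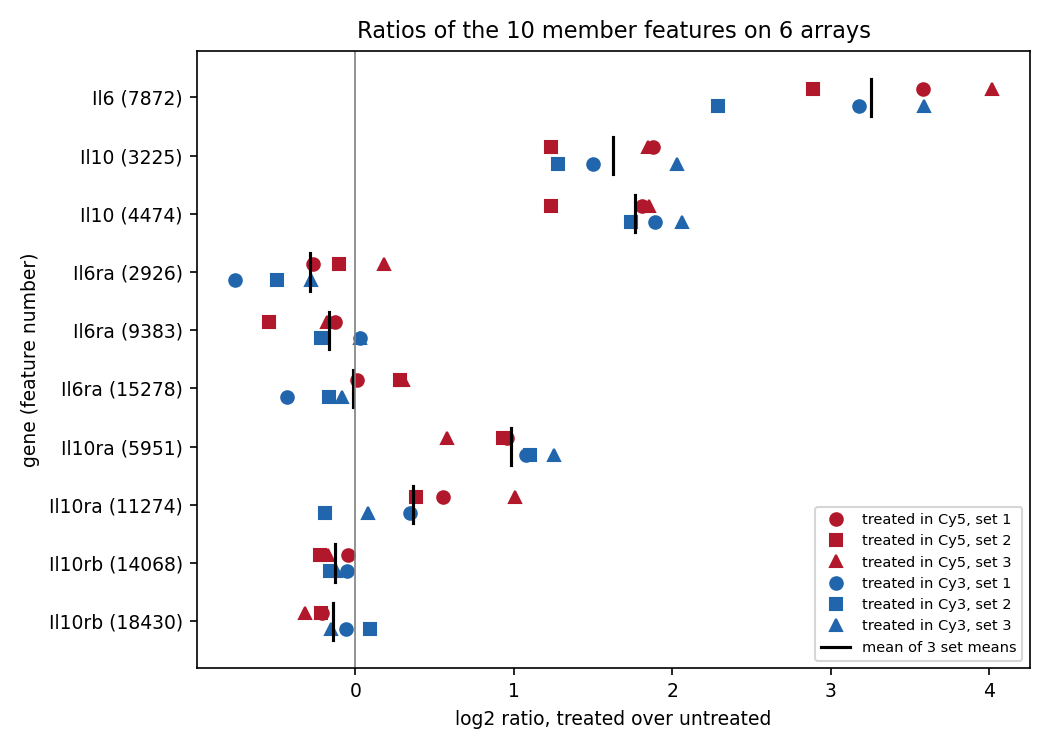
Log2 ratio of treated over untreated RNA (horizontal axis) of the 10 features on 6 arrays, with 1 row per feature. Red symbols are Cy5 arrays and blue symbols Cy3 arrays, their shape gives the set, and the black bar is the mean of the 3 set means. The Il6 and Il10 features lie right of 1 on every array, and the features of Il6ra and Il10rb lie between -0.76 and 0.30.

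Il10rb, the shared second chain of the interleukin-10 receptor, had log2 ratios of -0.13, -0.22 and -0.24 in sets 1 to 3 on the Cy5 arrays. On the Cy3 arrays it had -0.06, -0.04 and -0.14. All 6 arrays lay below 0, as did those of 17.4% of genes. The mean was -0.14 ± 0.05 (SD, n = 3 sets), with a 95% interval of 0.84-fold to 0.984-fold, and the adjusted p of 0.0688 did not pass. Its features had means of -0.13 ± 0.07 and -0.14 ± 0.09 and differed by 0.02 ± 0.12. With the 6 arrays taken as separate replicates the adjusted p was 0.0211. On the Cy5 arrays alone it was 0.0492, and on the Cy3 arrays alone the mean was -0.08 with an adjusted p of 0.384.

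Il6ra, the chain that binds interleukin-6, had log2 ratios of -0.13, -0.12 and 0.10 in sets 1 to 3 on the Cy5 arrays. On the Cy3 arrays it had -0.39, -0.29 and -0.11. The mean was -0.16 ± 0.13 (SD, n = 3 sets; adjusted p = 0.108), with a 95% interval of 0.806-fold to 0.997-fold, and 5 of 6 arrays were lower. The 3 features had means of -0.29 ± 0.23, -0.17 ± 0.18 and -0.02 ± 0.17, and none passed (adjusted p = 0.0547, 0.153 and 0.899). Feature 2926, the lowest, passed without set 2 (adjusted p = 0.0159) and without set 3 (adjusted p = 0.0151). Feature 15278, the highest, was 0.01, 0.28 and 0.30 on the Cy5 arrays, and -0.43, -0.17 and -0.08 on the Cy3 arrays. Its sign thus followed the dye orientation, and without set 1 its mean was 0.08.

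Il6st, the gp130 chain that Il6ra needs to signal, averaged -0.11 ± 0.21 on the log2 scale (adjusted p = 0.349). Its set means were -0.27 and -0.19 in sets 1 and 3, and 0.12 in set 2. In set 2 its features read -0.20 and -0.47 on the Cy5 array, and 0.48 and 0.69 on the Cy3 array. Without set 2 the gene passed as lower (-0.23, adjusted p = 0.011).

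The dye effect on the members was measured as the mean of the Cy5 arrays minus that of the Cy3 arrays. It was 0.48 for Il6, 0.21 for Il6ra and 0.12 for Il10ra, against -0.11 for Il10 and -0.12 for Il10rb. None of the 5 passed in limma's test of the dye term over genes with 6 values (adjusted p from 0.231 to 0.768, and 0 with an unadjusted p under 0.05), where 5.69% of 9217 genes did. None of their 10 features passed in the same test over features either (adjusted p from 0.0874 to 0.912), where 6.22% did. The dye difference of Il10ra averaged features of opposite sign, -0.32 for feature 5951 and 0.57 for feature 11274. That of Il6ra averaged 0.45, -0.23 and 0.42 for features 2926, 9383 and 15278. The features of Il10 had 0.05 and -0.265, and those of Il10rb -0.04 and -0.21. Features 2926 and 15278 of Il6ra and both Il10ra features, 4 in all, had an unadjusted p under 0.05 for the dye term. All features were not counted at that unadjusted cut-off, so this count has no background to be read against. Within sets 1 to 3 the Cy5 array stood above the Cy3 array by 0.41, 0.60 and 0.43 for Il6, by 0.26, 0.17 and 0.21 for Il6ra and by 0.04, 0.20 and 0.13 for Il10ra. For Il10rb the same difference was -0.07, -0.18 and -0.11, so these 4 genes each kept 1 sign in every set, and for Il10 it was 0.15, -0.28 and -0.20. With the set as a block, a fit chosen after seeing the data, none of the 5 passed in limma (adjusted p from 0.101 to 0.552), and neither did any of the 9217 genes (0% called). In that fit Il6 and Il6ra, 2 of the 5, had an unadjusted p under 0.05, as did 2584 of the 9217 genes. Because it called no gene at all, that fit cannot show that the members lack a dye effect. For Il6ra the dye difference was larger in size than the ratio of treated over untreated (-0.16), and for Il10rb it was close to it (-0.14).

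**Figure D3:**
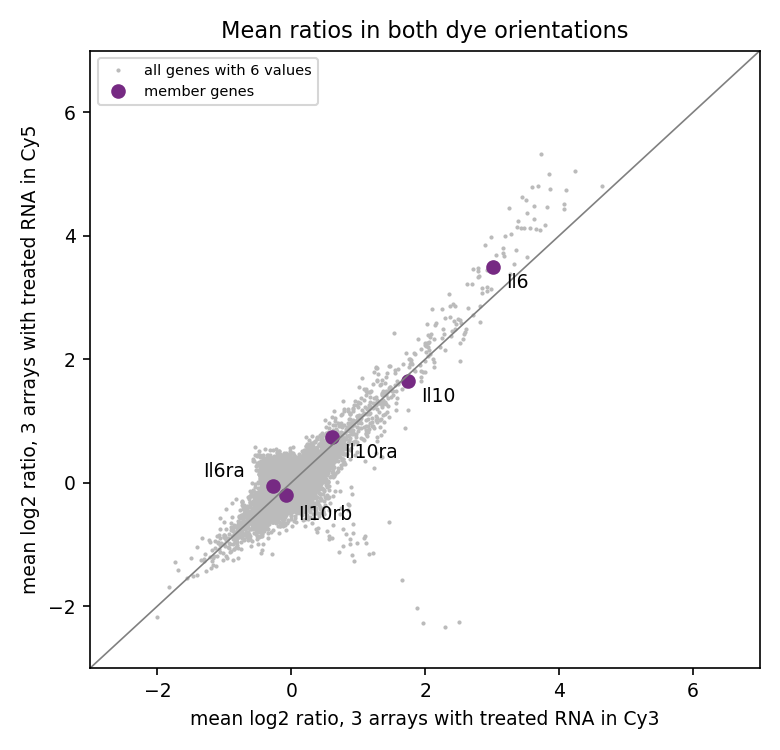
Mean log2 ratio over the 3 Cy5 arrays (vertical axis) and over the 3 Cy3 arrays (horizontal axis) for genes with 6 values, with the 5 member genes in purple. The line marks equal values. Il6 had means of 3.50 on the Cy5 arrays and 3.02 on the Cy3 arrays, Il10 had 1.64 and 1.75, Il10ra had 0.73 and 0.61, and the other receptor genes lie near 0 on both axes.

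Set against each other, the ligand genes had a mean log2 ratio of 2.48 ± 0.46 and the receptor genes one of 0.13 ± 0.05 (SD, n = 3 sets). The difference was 2.45, 1.91 and 2.70 in sets 1 to 3, or 2.35 ± 0.41, and it ran from 1.86 to 2.72 on single arrays. With features averaged by gene, the lowest ligand value of any array, 1.23 for Il10, was above the highest receptor value, 0.79 for Il10ra. Single features did overlap. Feature 5951 of Il10ra read 1.25 on the Cy3 array of set 3, above the 1.23 of both Il10 features on the Cy5 array of set 2. Il6 exceeded its receptor gene Il6ra by 3.42 ± 0.54, and Il10 exceeded the mean of Il10ra and Il10rb by 1.43 ± 0.26. Il6 exceeded Il10 by 1.56 ± 0.32 and was the higher of the pair on every array (0.78 to 2.17). Within the interleukin-10 receptor, Il10ra exceeded Il10rb by 0.81 ± 0.12, with single arrays from 0.49 to 1.04. These differences are given as a description, with no test, because the genes were chosen by hand.

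In order of their ratios the genes ran Il6, Il10, Il10ra, Il10rb and Il6ra. Each of the first 3 stood apart from its neighbours in every set. The last 2 had overlapping set means, from -0.19 to -0.09 in Il10rb and from -0.26 to -0.01 in Il6ra, and did not differ beyond that spread.

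Other tested genes of both families mostly had ratios near 0. Of 11 ligand genes listed for the interleukin-6 family 7 were tested, which left out Osm, Il27, Ebi3 and Cntf. Il6 rose and the other 6 did not pass, and the list's median log2 ratio was 0.08. The other 6 ran from -0.02 (Clcf1, a cardiotrophin-like cytokine) to 0.16 (Lif, leukaemia inhibitory factor). Without set 1 the list had 3 calls higher and without set 2 it had 2, where 1679 of 9668 and 1674 of 9273 genes were called higher. Of 7 receptor genes of that family 0 passed in limma, at a median of -0.03. Il6ra alone, 1 of the 7, had an unadjusted p under 0.05 there, a cut-off at which all genes were not counted. Without set 2, 1 of the 7 passed as lower, where 1721 of 9273 genes did. Among the 3 interleukin-10 family ligand genes tested, of 8 listed, Il10 rose, while Il20 and Il22 stood at 0.04 ± 0.16 and 0.02 ± 0.12. The median over all genes tested was -0.01, with 17.3% of them called higher and 16.8% lower.

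Of 6 receptor genes of the interleukin-10 and interferon class tested, 2 rose and 2 fell, at a median of -0.03, where 17.3% of all genes were called higher and 16.8% lower. Besides Il10ra, Ifngr2, the second chain of the interferon gamma receptor, rose by 0.18 ± 0.07 (adjusted p = 0.0386), a call that was lost without set 1 (adjusted p = 0.11) and without set 3 (adjusted p = 0.186). Its partner Ifngr1, the chain that binds interferon gamma, stood at -0.48 ± 0.06 (adjusted p = 0.00084). Ifnar2, a chain of the type I interferon receptor, stood at -0.31 ± 0.05 (adjusted p = 0.00338).

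The relay below these receptors and its brakes held 25 tested genes, of which 11 rose and 3 fell, at a median of 0.14, beside the same 17.3% and 16.8% of all genes. Stat3, the factor that both receptors activate, rose by 1.15 ± 0.07 (adjusted p = 3.24e-05), or 2.22-fold. Stat2, a subunit of the interferon-stimulated factor, rose by 2.65 ± 0.05 and Socs1, an inhibitor of Janus kinases, by 1.59 ± 0.19. Stat5b stood at -0.36 ± 0.03 and Pias3, an inhibitor of STAT3, at -0.32 ± 0.08. Picked out after its value was seen, Socs3, the feedback inhibitor that binds gp130, had log2 ratios of 0.14, -0.27 and -0.02 in sets 1 to 3 on its single feature, a mean of -0.05 ± 0.21 (adjusted p = 0.691). Its set means lay on both sides of 0, unlike those of Stat3.

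Known regulators of Il6 transcription and mRNA rose in 12 of 15 cases and fell in 1, at a median of 0.62, where 17.3% of all genes rose and 16.8% fell. Zfp36, whose product tristetraprolin destabilises cytokine mRNA, rose by 2.05 ± 0.10, Atf3, a transcription factor that restrains Il6, by 1.96 ± 0.04, and the interferon regulatory factor gene Irf1 by 1.92 ± 0.19. Zfp36l2, a relative of Zfp36, was the member that fell, at -0.40 ± 0.15. Known regulators of Il10 rose in 5 of 14 cases and fell in 5, at a median of -0.07, beside that same background. Zfp36 again led, followed by Map3k8, a kinase upstream of ERK (1.64 ± 0.13), and Dusp1, a phosphatase of MAP kinases (0.67 ± 0.15). Sp1, a transcription factor of the Il10 promoter, stood at -0.41 ± 0.03 and Pknox1, a homeodomain factor, at -0.39 ± 0.27. The call of Pknox1 was lost without set 1 (adjusted p = 0.0783) and without set 3 (adjusted p = 0.126). Each of these fits left 3 members of the list that fell, where 1621 of 9668 and 925 of 9556 genes did. The regulator lists share Zfp36 and Cebpb.

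Genes known to respond to interleukin-10 or STAT3 rose in 16 of 24 cases and fell in 0 in limma, at a median of 0.52, where 17.3% of all genes rose and 16.8% fell. In that list 1 lower gene had an unadjusted p under 0.05, Fgl2 (-0.13 ± 0.02), a cut-off at which all genes were not counted. Saa3, an acute-phase gene, rose by 3.95 ± 0.08, Il1rn, the interleukin-1 receptor antagonist gene, by 3.95 ± 0.17, and the kinase gene Pim1 by 2.11 ± 0.14 (feature means 1.85 and 2.38). This list also holds Stat3, Zfp36 and Dusp1, and several of its genes are known to respond to LPS by other routes. It was read on the same RNA as the cytokine genes, and the part of either cytokine in its ratios was not tested.

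**Figure D4:**
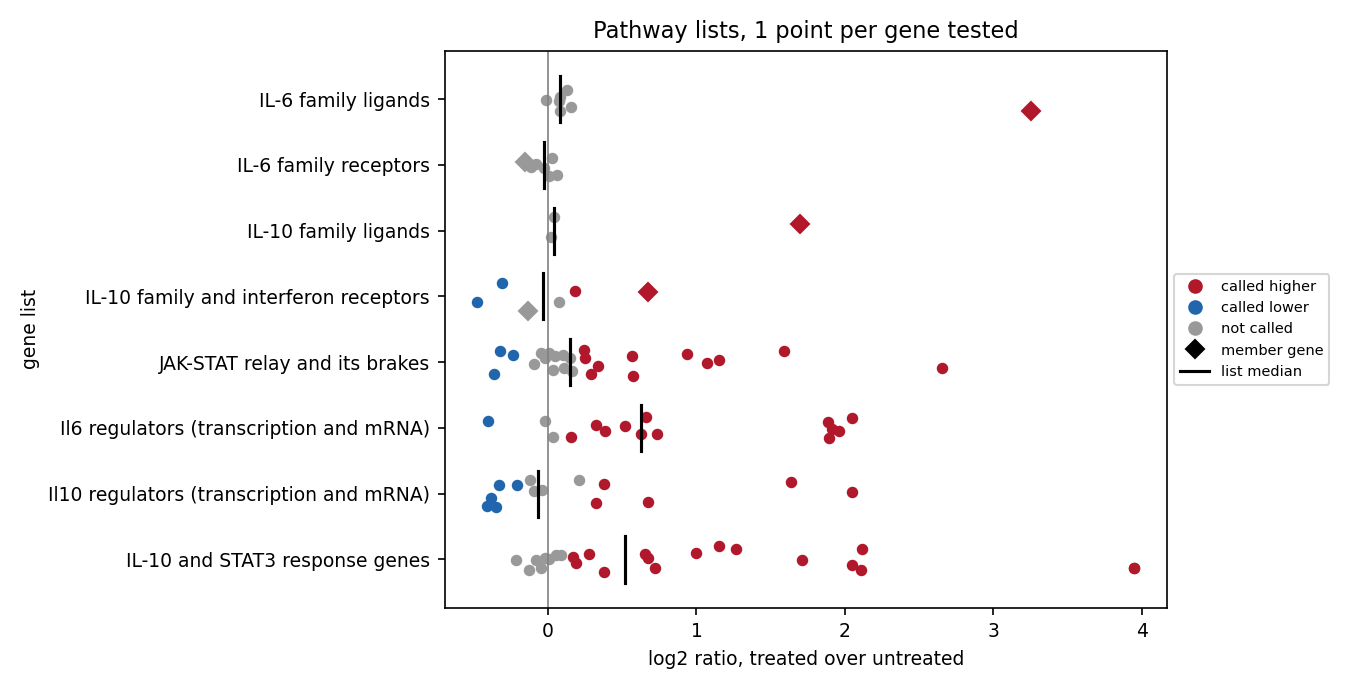
Log2 ratio of treated over untreated RNA (horizontal axis) of each gene tested in the 8 lists (rows). Red points were called higher, blue points lower and grey points neither at an adjusted p under 0.05, diamonds are the 5 member genes, and black bars are list medians. The member ligands Il6 (3.26) and Il10 (1.70) stand apart from the other ligand genes of their families that were tested.

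Genes whose 6 array ratios lay closest to those of each member were found by the root mean square difference in log2 ratio over the 6 arrays, among the 8885 other genes with 6 values whose symbols were not clone or predicted-gene identifiers. For Il6 these were Gbp8 (0.28), Tlr3 (0.30) and Iigp1 (0.41), with mean ratios of 3.06, 3.18 and 3.42. For Il10 they were Bcl3 (0.13), Stfa3 (0.18) and Cd274 (0.27), with mean ratios of 1.71, 1.80 and 1.60, where a second Stfa3 feature with 3 zeros was not used and read 0.11. Il10ra lay closest to Dusp1, P2rx4 and Cln8 (each 0.07), whose ratios were 0.67, 0.70 and 0.71. That likeness is to the average of its features, which moved in opposite ways (Pearson's r = -0.877), and neither feature was compared alone. Il6ra lay closest to Lmo4, Mrps25 and Ung (0.06 to 0.08), and Il10rb to Nfe2l2, Hexa and Dph5 (each 0.04). The neighbours of Il6ra and Il10rb had adjusted p from 0.0638 to 0.115 in limma.

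Macrophage markers were checked as far as ratios allow, since they give no level. Of 9 tested, 5 rose and 2 fell, where 17.3% of all genes rose and 16.8% fell. Those that rose included Adgre1, which encodes a macrophage surface antigen (1.16 ± 0.12), while Cd68 and Cd14 did not pass. The 2 that fell were Fcgr3, an Fc gamma receptor gene (-0.72 ± 0.32, adjusted p = 0.00529), and Csf1r, the receptor gene for macrophage colony-stimulating factor (-0.19 ± 0.06, adjusted p = 0.0245). Of 25 markers of 6 other cell types 1 passed, beside 34.2% of all genes tested. It was Elane of neutrophils (0.49 ± 0.22, adjusted p = 0.00703). Log2 ratios of the 25 ran from -0.11 to 0.49. Between arrays of the same dye orientation Pearson's r of the gene ratios was 0.745 to 0.909, and it was 0.649 to 0.845 from one orientation to the other. These are correlations across genes, which are not independent replicates. Precision is limited by how few arrays there are, and no other measure of it was at hand.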

How the data were processed

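The authors deposited 1 log2 ratio per feature and array, and no channel intensity was used here. The base of the log follows from the largest value, 6.643856, which is log2 of 100. How background and dyes were corrected, and on what scanner, is not given in the sources used. The sign of each ratio on the 3 Cy3 arrays was turned. Values of exactly 0 were taken as not measured. The arrays of each numbered set were averaged where both measured a feature, and the features of a gene with the most complete sets were averaged. Genes with at least 2 complete sets entered lmFit and eBayes (limma 3.58.1, R 4.3.3), which tested their set means against 0, with Benjamini-Hochberg adjustment over 10088 genes and a threshold of 0.05. Single features were tested alike. The procedure was tested on simulated data. Of 13738 features with 1 symbol in the platform annotation, 13694 matched RefSeq by gene identifier. Every SD is over 3 set means and every adjusted p is limma's, unless stated. The members, lists and tests were chosen with earlier results of these data known. Of each list, the 3 largest rises and 2 largest falls that passed were named, or the gene with the smallest p where none did. Il6st was always named, and so were the 3 nearest genes of each member, clone identifiers passed over.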

Additional observations from a re-analysis of the deposited data

How the results depend on the processing

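Il6 and Il10 kept their direction and their call under all 15 alternatives, with log2 ratios of 2.98 to 3.59 and 1.57 to 1.86. Il10ra kept its call under 14 of them and lost it in the test against 1.5-fold (0.67, adjusted p = 1). Il10rb passed with the 6 arrays as separate replicates (-0.14, adjusted p = 0.0211), with the set number as a replicate block (-0.14, adjusted p = 0.0284) and on the Cy5 arrays alone (-0.20, adjusted p = 0.0492). Il6ra passed with that block (-0.16, adjusted p = 0.0181), and its adjusted p over all alternatives ran from 0.0181 to 1. The arrays of a set share a number in the labels, and their deviations correlated with r of 0.256, 0.212 and 0.0999 over 12798 features. With 5 of 6 arrays closest to their own number, a real pairing was not taken as shown. The main test still averaged the arrays of each number, so its set means, SDs, intervals and adjusted p rest on that pairing. The fit of separate arrays without a block did not use it. The block gave 3643 calls against 3449. Feature 15278 of Il6ra turned to 0.1965 on the Cy5 arrays alone and ran from -0.0775 to 0.0821 with 1 set left out, and Il6st turned to 0.0687 on the Cy3 arrays alone; the cause was not tested. Leaving out 1 set gave 2009 to 3395 calls, 1084 to 1679 higher and 925 to 1721 lower, the lowest without set 3, for a cause that was not tested. The test against 1.5-fold gave 425 calls, 341 higher and 84 lower, since it asks for a larger change. The difference of ligands minus receptors ran from 2.18 without set 3 to 2.57 without set 2. In the same fits Il6 minus Il6ra was 3.22 and 3.72, and Il10 minus the mean of Il10ra and Il10rb was 1.30 and 1.56. Some alternatives, such as keeping zeros or taking the arrays as separate, cannot change a member's ratio or these differences. No member value was 0, and each set held both orientations. Signal over background could not be weighed.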
